A study of Mus musculus with 24 samples.

Results

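Eomes, T, Pax7, Shisa6, Tspan8, Pdx1, Foxo1 and Taf4b are 8 genes known as factors or markers of the rare stem-like cells among undifferentiated spermatogonia. They were matched by gene symbol, out of 23333 genes in either table. All 8 were among the 23177 genes of the table for the Zbtb16 mutant, and 7 were among the 21688 genes of the table for the Sox3 mutant, where Pdx1 was not analysed.

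Testes were taken from C57BL/6J mice at postnatal day 7, and RNA was sequenced from cells sorted with magnetic beads into a THY1+ fraction of undifferentiated spermatogonia (uSPG) and a KIT+ fraction of spermatogonia that have begun to differentiate (dSPG). In the Zbtb16 set, Zbtb16 null mice were homozygous for the luxoid allele, a mutation present in every cell, and were compared with wild-type (WT) littermates. In the Sox3 set, conditional knockout (cKO) mice carried floxed Sox3 and a Cre driven by the germ cell promoter Ddx4, so that deletion was directed to germ cells, and were again set beside WT littermates. Each set held 12 libraries, 3 for each genotype and fraction, or 24 libraries in all, and the testes of 3 mice were pooled for each isolation.

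Spermatogonial stem cells are a small share of the undifferentiated spermatogonia. They either renew themselves or give rise to progenitors, which lose stem-associated transcripts, gain KIT and enter differentiation. The T-box factors EOMES and T and the paired box factor PAX7 mark small subsets of undifferentiated cells. SHISA6 is a membrane protein that restrains WNT signalling, TSPAN8 is a tetraspanin of the cell surface, PDX1 is a homeobox factor best known from the pancreas, FOXO1 acts downstream of PI3K and AKT signalling, and TAF4B is a germ cell enriched subunit of the general transcription factor TFIID.

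Promoters, the 250 bases before and the 50 bases from the annotated start, are shown for Eomes, T and Pax7, which were lower in Zbtb16 null uSPG, and for Tspan8, which did not pass that test. They come from RefSeq (GRCm38.p6, the same assembly as mm10), where 6 of the 8 genes were matched. Shisa6 had no match. In the mm10 annotation these genes span chr9:118478212-118486132 (Eomes, plus strand), chr17:8434423-8442496 (T, plus), chr4:139737062-139833528 (Pax7, minus), chr11:66211725-66525964 (Shisa6, minus), chr10:115816832-115849893 (Tspan8, plus), chr5:147269959-147275848 (Pdx1, plus) and chr3:52268336-52353221 (Foxo1, plus). The promoter windows are chr9:118477939-118478238 on the plus strand for Eomes, chr17:8434173-8434472 on the plus strand for T, chr4:139832919-139833218 on the minus strand for Pax7 and chr10:115817034-115817333 on the plus strand for Tspan8. The windows of Pax7 and Tspan8 lie inside the gene spans given above, so their RefSeq starts are downstream of the gene starts in that annotation. Positions below are from the RefSeq start. Capitals mark matches, on either strand, to 6 motifs. The core promoter motifs were the TATA box, searched as TATAA, the CCAAT box, searched by the letters of its name, and the GC box, searched as GGGCGG. The factor motifs were the T-box core, searched as GGTGTGA, the forkhead site bound by FOXO factors, searched as GTAAACA, and the SOX site, searched as CTTTGT.
Eomes: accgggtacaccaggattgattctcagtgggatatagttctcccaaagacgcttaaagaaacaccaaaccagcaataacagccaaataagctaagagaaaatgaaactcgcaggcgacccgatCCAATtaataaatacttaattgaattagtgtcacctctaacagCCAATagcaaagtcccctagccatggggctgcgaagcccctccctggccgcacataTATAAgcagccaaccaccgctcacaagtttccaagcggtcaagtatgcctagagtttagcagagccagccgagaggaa
T: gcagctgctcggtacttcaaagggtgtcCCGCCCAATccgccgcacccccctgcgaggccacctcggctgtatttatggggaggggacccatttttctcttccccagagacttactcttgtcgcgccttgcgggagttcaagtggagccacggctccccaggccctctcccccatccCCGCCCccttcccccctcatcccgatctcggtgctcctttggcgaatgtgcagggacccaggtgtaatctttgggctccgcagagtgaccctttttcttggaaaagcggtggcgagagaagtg
Pax7: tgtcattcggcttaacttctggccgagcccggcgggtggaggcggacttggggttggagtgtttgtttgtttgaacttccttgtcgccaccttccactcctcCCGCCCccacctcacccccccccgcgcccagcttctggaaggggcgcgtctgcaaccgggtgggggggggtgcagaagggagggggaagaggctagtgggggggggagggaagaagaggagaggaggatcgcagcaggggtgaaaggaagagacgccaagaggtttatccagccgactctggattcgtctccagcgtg
Tspan8: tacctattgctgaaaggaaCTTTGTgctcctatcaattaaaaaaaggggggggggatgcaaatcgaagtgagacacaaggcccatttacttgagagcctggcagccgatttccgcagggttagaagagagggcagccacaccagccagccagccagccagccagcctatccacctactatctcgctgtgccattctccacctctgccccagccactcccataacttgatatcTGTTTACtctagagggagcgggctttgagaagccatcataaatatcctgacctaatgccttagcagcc

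Eomes held 1 TATAA at position -28 from the start (position 0 is the first transcribed base) and 2 CCAAT motifs. T held 1 CCAAT, at position -218, which overlapped 1 of its 2 GC boxes. Pax7 held 1 GC box. Tspan8 held 1 FOXO site at position -18 and 1 SOX site at position -231. No T-box core was found in these 4 windows, which says only that these letters are not in them. Among the 32851 promoters of the same table, 24.9% held TATAA, 37.4% CCAAT, 35.7% a GC box, 3.98% the T-box core, 3.65% the FOXO site and 18.7% the SOX site. GC content was 47.3% for Eomes, 61.7% for T, 63.7% for Pax7 and 51.7% for Tspan8, against a median of 52.7% over all promoters.

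Levels are in FPKM, fragments normalised for transcript length and for the mapped reads of each library, and changes are log2 changes of FPKM + 0.1, which understate the change of low genes. Errors of levels are SD with n = 3 libraries and errors of log2 changes are SE. A gene passed the test when its adjusted p in limma was at most 0.05 and its change at least 1.5-fold. Depth, recovered from the steps between low FPKM values, was 25.95 to 35.2 M reads in the Zbtb16 libraries, 28.26 to 31.89 M in replicate 1 of the Sox3 libraries and 11.01 to 14.93 M in replicates 2 and 3. Zbtb16 fell in the null from 52.1 ± 8.93 to 17.1 ± 1.33 FPKM in THY1+ uSPG, and Sox3 was at 0 to 0.0820 FPKM in the 6 cKO libraries against 6.28 to 24.4 in the 6 WT libraries. In the Sox3 set the sorting markers went against the WT labels: the 3 WT libraries labelled THY1+ had 0.213 to 0.254 FPKM of Thy1, and the 3 labelled KIT+ had 3.59 to 4.06. Kit, at 45.6 to 80.1 and 12.97 to 18.8 FPKM, went the same way. These libraries keep their labels below, and the genotype effect was taken as the average over both fractions, a value that exchanging the WT labels would not alter.

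In WT THY1+ uSPG of the Zbtb16 set, Taf4b was highest at 32.0 ± 0.934 FPKM, above 91.7% of genes. Foxo1 followed at 18.0 ± 5.19, Tspan8 at 6.97 ± 1.84, T at 2.77 ± 0.535, Eomes at 1.55 ± 0.381, Pax7 at 0.748 ± 0.123, Shisa6 at 0.519 ± 0.0940 and Pdx1 at 0.0861 ± 0.0425 FPKM. No neighbours in that order overlapped in their 3 libraries. Pax7 and Shisa6 came closest, with the lowest Pax7 library at 0.610 and the highest Shisa6 library at 0.581 FPKM. In WT KIT+ dSPG the order was Taf4b (36.1 ± 5.12), Foxo1 (7.98 ± 2.01), Tspan8 (1.51 ± 0.307), Shisa6 (0.541 ± 0.146), T (0.516 ± 0.178), Eomes (0.249 ± 0.0257), Pax7 (0.187 ± 0.0770) and Pdx1 (0.0297 ± 0.0448). There Shisa6 and T overlapped, as did Eomes and Pax7, so their order is within the spread.

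**Figure D1:**
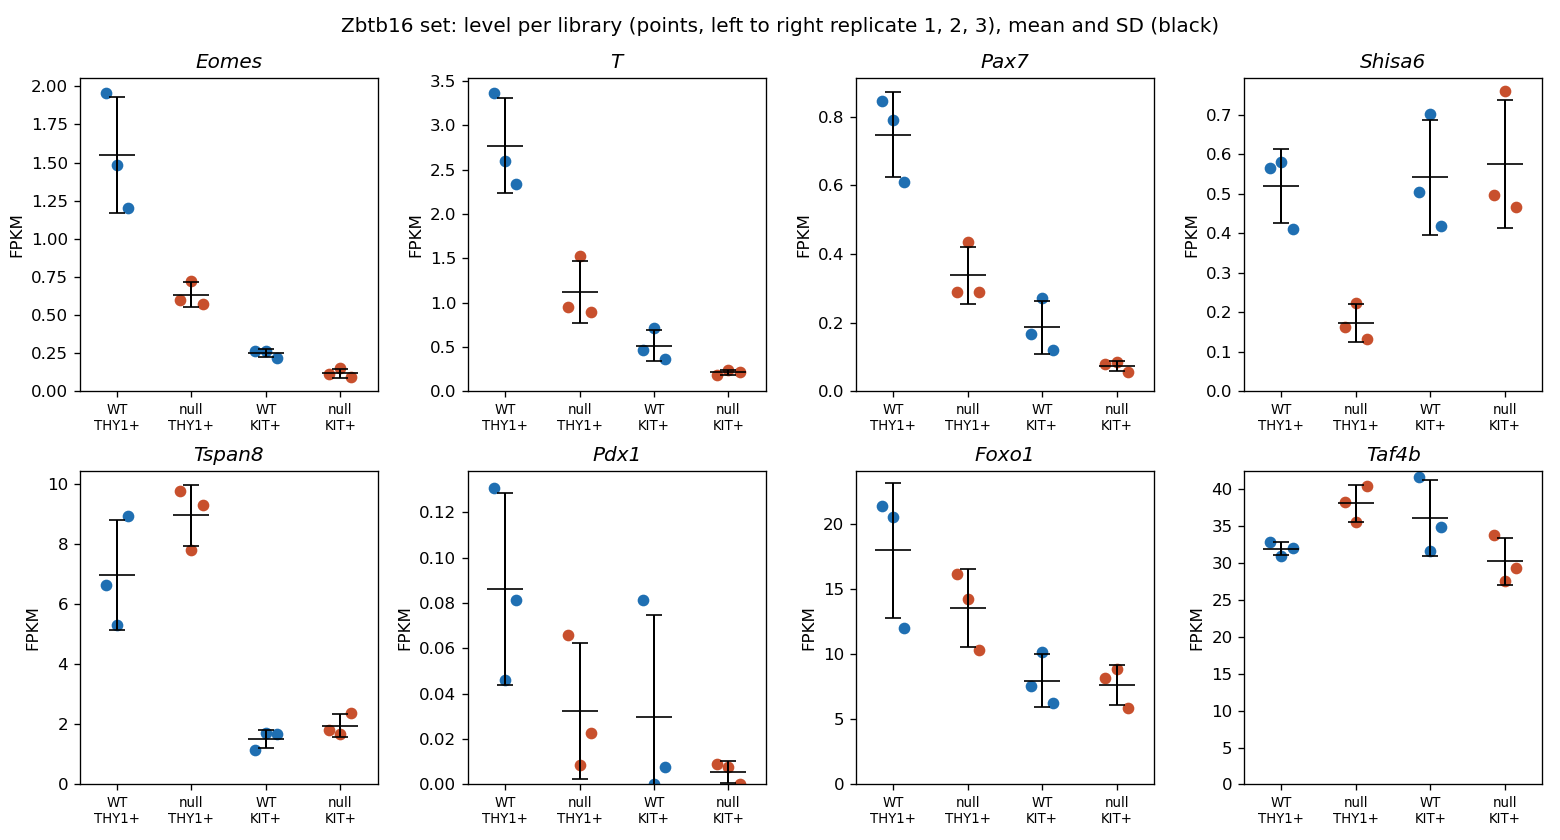
FPKM (y axis, from 0) of the 8 genes in each library of the Zbtb16 set, WT in blue and null in red, with the mean and SD of 3 libraries in black. The null THY1+ points of Eomes, T, Pax7 and Shisa6 lie below all WT THY1+ points, Shisa6 overlaps between the KIT+ groups, and Taf4b stays between 27.6 and 41.7 FPKM.

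The first question was what loss of ZBTB16 does to these transcripts in THY1+ uSPG. Eomes, T, Pax7 and Shisa6 were lower in the null, whereas Tspan8, Foxo1 and Taf4b did not pass the test. Of the 7 genes tested, 4 fell and 0 rose, against 1.26% of all 22374 genes that fell and 3.98% that passed in either direction. The median change of the 7 was -0.96, and that of all genes was -0.03. The study itself singled out T and Eomes from these libraries, so their direction is not independent evidence.

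Eomes, a T-box factor, was at 1.96, 1.48 and 1.21 FPKM in the WT THY1+ libraries and at 0.598, 0.726 and 0.576 in the null. All null libraries were below all WT libraries, on 157 to 245 reads in WT and 70 to 83 in the null. The change was -1.15 ± 0.20 (95% interval -1.58 to -0.72, adjusted p = 0.00858, limma).

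T, the founding T-box factor, was at 3.37, 2.60 and 2.34 FPKM in WT and at 0.951, 1.52 and 0.892 in the null. The groups did not overlap, although null replicate 2 stood above the other null libraries. It fell by 1.25 on the log2 scale (SE 0.25, adjusted p = 0.0191, limma).

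Pax7, a paired box factor also used by muscle satellite cells, was at 0.844, 0.789 and 0.610 FPKM in WT and at 0.291, 0.434 and 0.291 in the null. Again the null libraries were all lower, with 48 to 70 reads against 112 to 149. The change was -0.96 ± 0.22 (adjusted p = 0.0329, limma). This call was lost with the 2 groups fitted alone (adjusted p = 0.0568, limma) or with 0.01 added in place of 0.1 (adjusted p = 0.0730). Chrna1, a muscle gene, was under 0.1 FPKM in each group, and the 3 satellite cell markers measured summed to 0.580 to 1.01 FPKM in WT and 0.835 to 1.15 in the null. Their part in the Pax7 values was not tested.

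Shisa6, the WNT-restraining membrane protein, was at 0.566, 0.581 and 0.411 FPKM in WT and at 0.162, 0.224 and 0.132 in the null. It had the largest ratio of group means, 3.01-fold lower in the null, with no overlap. On the log2 scale with the added 0.1 the change was -1.19 ± 0.23 (adjusted p = 0.0179, limma).

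Without overlap, 4 of the 8 genes were lower and 1 was higher in the null, where 14.1% of all genes tested were lower and 15.5% higher in the same sense. The higher gene was Taf4b, with 32.9, 31.0 and 32.0 FPKM in WT and 38.3, 35.5 and 40.4 in the null. Its change of 0.25 ± 0.11 was small and did not pass (adjusted p = 0.199, limma). Under a scaling that holds germ cell genes level the sign turned, to -0.09.

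Tspan8 was at 6.65, 5.31 and 8.95 FPKM in WT and 9.77, 7.83 and 9.32 in the null. The null was higher in all same-numbered pairs, 3 of 3, but the groups overlapped and the change of 0.39 ± 0.22 did not pass (adjusted p = 0.304, limma). Foxo1 was at 21.4, 20.5 and 12.01 in WT and 16.2, 14.2 and 10.3 in the null, with overlap and a change of -0.38 ± 0.26 (adjusted p = 0.398, limma). Replicate 3 was the lowest Foxo1 library in every group of the Zbtb16 set. Pdx1 rested on 6 to 17 reads per WT library and 1 to 8 per null library, was below the filter on low values and was not tested. Those read numbers take a length of 4313 bases from the FPKM steps, and the annotated length of 2158 bases would give correspondingly fewer reads. Fitted without that filter, its change was -0.49 ± 0.25 (adjusted p = 0.268, limma).

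**Figure D2:**
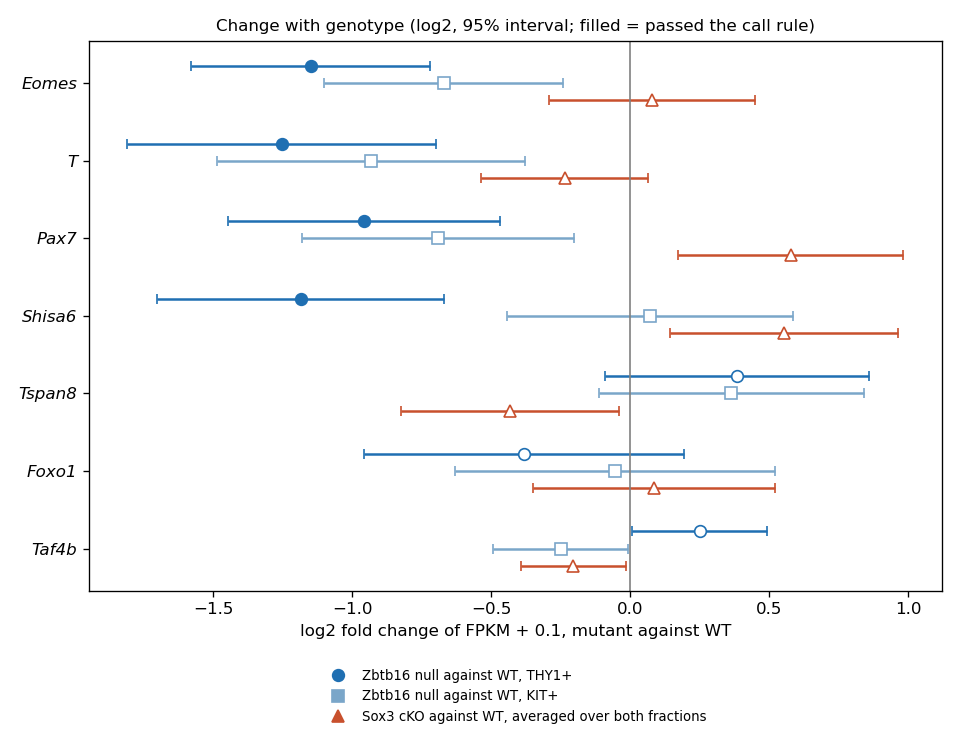
Log2 change of FPKM + 0.1 (x axis) with its 95% interval for the 7 genes tested, null against WT in THY1+ (circles) and KIT+ (squares) and Sox3 cKO against WT averaged over both fractions (triangles). Filled symbols passed the test, which only Eomes, T, Pax7 and Shisa6 did, in THY1+ cells of the null.

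Leaving out WT replicate 1, WT replicate 2, null replicate 1 or null replicate 3 of the THY1+ fraction left 1 call in each case, Eomes (adjusted p of at most 0.0458, limma). Adjusted p-values without 1 library reached 0.0885 for T, 0.131 for Pax7 and 0.0772 for Shisa6, and no sign changed. Same-numbered libraries deviated together here, and a fit with the replicate number as a block kept the same 4 calls.

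Other genes of undifferentiated spermatogonia did not move as one. Of 16 further stem and undifferentiated markers, 1 rose, Utf1, a chromatin-associated factor of undifferentiated cells (1.24 ± 0.28, adjusted p = 0.0289, limma), and 0 fell, with a median of 0.00. Of 4 progenitor genes, Neurog3, a factor of progenitors primed to differentiate, fell (-1.22 ± 0.20, adjusted p = 0.00738, limma) and the other 3 did not pass. The study had named Utf1 and Neurog3 in these directions too, so they are not independent evidence either. In the T-box family, 11 other members were tested and 1 passed, Tbx4, which was higher (1.19 ± 0.21, adjusted p = 0.0117, limma). Tbx21, a T-box factor of T and NK cells from the subfamily of Eomes, was at -0.41 ± 0.34. None of 1 other PAX gene, 3 FOXO genes, 7 SHISA genes and 15 TFIID subunits passed, and none of the 8 markers of differentiating spermatogonia. The values of the paralogs were -0.33 ± 0.25 for Foxo3, 0.21 ± 0.18 for Foxo4, -0.06 ± 0.22 for Shisa7, 0.15 ± 0.21 for Shisa9, -0.16 ± 0.17 for Taf4a and 0.07 ± 0.18 for Taf12. Tbr1 was below the filter, with no Zbtb16 library above 0.134 FPKM, and Pax3 was not analysed here.

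Markers of other cells moved with genotype in the THY1+ fraction. Each of the 8 general germ cell genes was higher in the null (0 called, median 0.32), and their summed level was 1105 to 1288 FPKM in WT and 1290 to 1609 in the null. Each of 9 macrophage genes was lower (1 called, Cd68, -0.79 ± 0.16, adjusted p = 0.0208, limma), with summed levels of 878 to 1013 FPKM in WT and 406 to 774 in the null. The 6 Leydig, 8 Sertoli and 8 peritubular and stromal genes were all lower as well, with medians of -0.84, -0.53 and -0.60 and 0 calls. Of 8 endothelial genes, 6 were lower, and of 2 satellite cell genes tested, 1 was. Their part in the change of the stem genes was not tested. Holding germ cell genes level moves null against WT by -0.34 on the log2 scale before the 0.1 is added, so low genes move by less. Under that scaling the same 4 genes passed and their changes were -1.43 for Eomes, -1.56 for T, -1.21 for Pax7 and -1.38 for Shisa6. In such sorted bulk samples, fewer cells of a type and less RNA per cell cannot be told apart.

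EOMES is also made by NK cells and T cells, and THY1 marks T cells, so their genes were measured too. Of 15 T and NK cell genes, 10 were lower and 5 higher in null THY1+ uSPG, with 0 calls and a median of -0.41. Their summed level was 25.5 to 26.8 FPKM in WT THY1+ and 19.1 to 24.1 in null THY1+, and Tbx21, Ncr1, Klrb1c and Nkg7 all had group means of at least 0.1 FPKM in both. In both KIT+ groups the means of Cd3g, Cd4, Cd8a, Ncr1, Klrb1c and Nkg7 were under 0.1 FPKM, and the sum was 2.71 to 5.29 FPKM. Tbx21 was not under 0.1 FPKM in either KIT+ group. Its change from THY1+ to KIT+ was -0.48 ± 0.34 in WT (adjusted p = 0.320, limma) and 0.04 ± 0.34 in the null (adjusted p = 0.938, limma). The part of these cells in the Eomes signal was not tested.

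**Figure D3:**
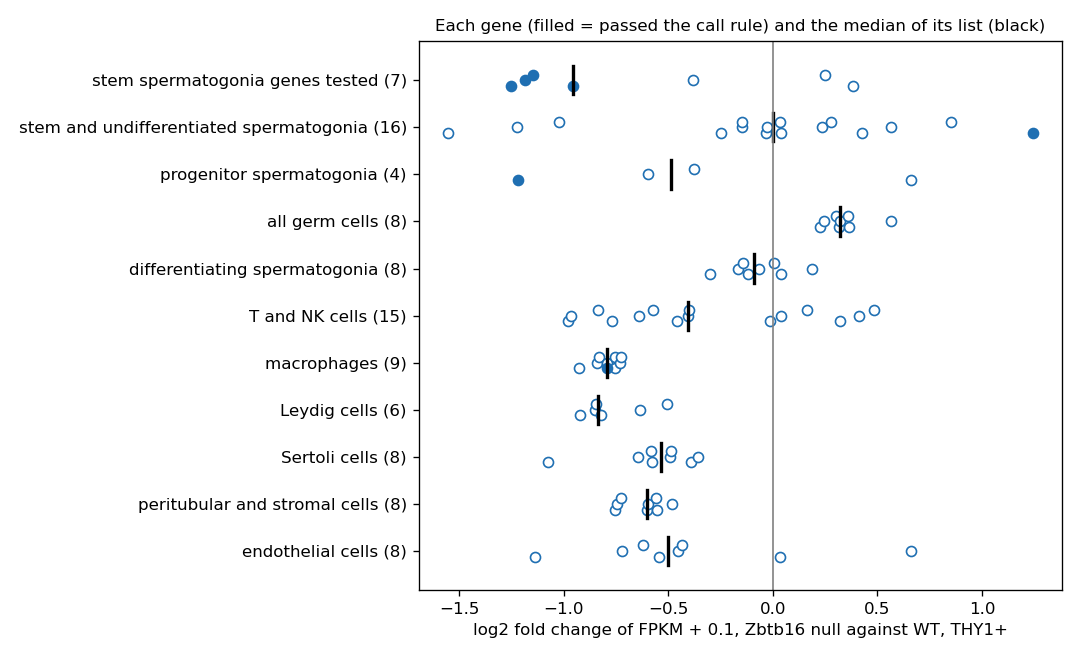
Log2 change of FPKM + 0.1 (x axis), null against WT in THY1+ uSPG, for each gene tested (circles) in the stem genes and in 10 lists of cell markers, with the list median as a black line and the number of genes in brackets. Filled circles passed the test, and the general germ cell genes lie right of 0 while macrophage, Leydig, Sertoli and stromal genes lie left of it.

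In KIT+ dSPG the same direction was seen for Eomes, T and Pax7 at lower levels. Markers of other cells moved with genotype here too, with 0 calls in each list: differentiating spermatogonia genes summed to 340.3 to 350.1 FPKM in WT and 250.6 to 293.2 in the null, Leydig genes to 1215 to 2272 and 2045 to 3122, and peritubular and stromal genes to 167 to 307 and 267 to 494. All 6 Leydig, 8 stromal and 8 endothelial genes were higher in the null, 7 of 8 general germ cell genes were lower, and their part in the values below was not tested. None of the 7 stem genes passed, where 0.259% of all genes did (0.067% lower) and 3863 had an unadjusted p under 0.05, and 3 of the 8 were lower without overlap, where 8.77% of genes were. Eomes was at 0.262, 0.267 and 0.220 FPKM in WT and 0.111, 0.153 and 0.0966 in the null. T was at 0.470, 0.712 and 0.366 in WT and 0.183, 0.246 and 0.217 in the null. These values rest on 11 to 19 reads per null library for both genes.

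Their changes were -0.67 ± 0.20 for Eomes (adjusted p = 0.172, limma) and -0.93 ± 0.25 for T (adjusted p = 0.164). Pax7, at 0.168, 0.272 and 0.121 FPKM in WT and 0.0789, 0.0857 and 0.0571 in the null, changed by -0.69 ± 0.22 (adjusted p = 0.192). Same-numbered libraries also deviated together in this comparison, and with the replicate block 2 genes passed, T (adjusted p = 0.0445) and Pax7 (adjusted p = 0.0495), with limma. The share of all genes that passed with the block was not computed. The share given above is from the fit without it and cannot be set beside these 2 calls.

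Shisa6 in KIT+ dSPG was at 0.504, 0.702 and 0.418 FPKM in WT and 0.497, 0.760 and 0.467 in the null. The groups lay over each other, and the change was 0.07 ± 0.23 (95% interval -0.44 to 0.59). Tspan8 changed by 0.36 ± 0.22, Foxo1 by -0.05 ± 0.26 and Taf4b by -0.25 ± 0.11, and none of these passed. Of the progenitor genes Neurog3 was again the one that fell (-1.19 ± 0.20, adjusted p = 0.0389, limma).

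The genotype by fraction interaction, the null effect in KIT+ less that in THY1+, was tested directly. No member passed in the fit without a replicate block, and 7 of 22374 genes did (0.0313%), against 5014 genes at an unadjusted p under 0.05. Shisa6 came nearest at 1.26 ± 0.33 (adjusted p = 0.0944, limma). It passed with the replicate block (adjusted p = 0.0163, limma) and with germ cell genes held level (1.64, adjusted p = 0.0311). That scaling moves null against WT by -0.34 in THY1+ and 0.21 in KIT+ before the 0.1 is added. It raises interaction values across genes, and the share of all genes that passed under it was not computed. Taf4b, higher in the null in THY1+ and lower in KIT+ in each same-numbered pair, was at -0.50 ± 0.16 (adjusted p = 0.118). Eomes was at 0.48 ± 0.28, T at 0.32 ± 0.36 and Pax7 at 0.26 ± 0.32, so a different response of these 3 genes in the 2 fractions was not shown. By group means the null was lower 2.45-fold in THY1+ and 2.07-fold in KIT+ for Eomes. These ratios were 2.47 and 2.40 for T, and 2.21 and 2.53 for Pax7. With 0.01 added in place of 0.1, Pax7 was at -0.042.

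The second question was how the genes change from THY1+ to KIT+ cells. Eomes, T, Pax7, Tspan8 and Foxo1 fell in KIT+ dSPG in WT of the Zbtb16 set and in both mutants, whereas Shisa6 and Taf4b followed other patterns. In WT, 5 of 7 genes fell, where 14% of all genes fell and 21.2% passed in either direction. In the null 5 fell and 1 rose, where 16% fell and 13.2% rose (29.2% in all). In Sox3 cKO cells 5 of 7 fell, where 12.2% of all genes fell and 22.7% passed.

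The 2 T-box genes had the largest ratios of group means in WT, 6.21-fold for Eomes and 5.37-fold for T, higher in THY1+. Their log2 changes were -2.22 ± 0.20 and -2.24 ± 0.25 (adjusted p = 1.07e-05 and 6.88e-05, limma). Tspan8 was at 5.31 to 8.95 FPKM in THY1+ and 1.15 to 1.70 in KIT+, a change of -2.13 ± 0.22. Pax7 changed by -1.59 ± 0.22 and Foxo1 by -1.15 ± 0.26. None of these 5 overlapped between the fractions, as was the case for 24.1% of all genes in that direction. Taf4b, at 41.7, 31.7 and 34.9 FPKM in WT KIT+, changed by 0.17 ± 0.11 and did not pass.

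Shisa6 did not follow the other markers. In WT its fractions overlapped (0.04 ± 0.23, 95% interval -0.48 to 0.55, limma), while in the null it was higher in KIT+ without overlap, by 1.29 ± 0.23 (adjusted p = 0.00118, limma). In Sox3 cKO cells it was 0.391, 0.634 and 0.588 FPKM in THY1+ and 0.537, 1.12 and 0.749 in KIT+, a change of 0.47 ± 0.27 that did not pass. With germ cell genes held level, a shift of 0.41 before the 0.1 is added, it was 0.83 and passed (adjusted p = 0.0211, limma). Eomes changed by -2.32 ± 0.24 there, T by -1.79 ± 0.19, Pax7 by -1.90 ± 0.26 and Tspan8 by -1.18 ± 0.25. Foxo1 was at -1.03 ± 0.28 (adjusted p = 0.0176, limma), a call lost without cKO THY1+ replicate 2 (-0.97) or 3 (-0.999) or cKO KIT+ replicate 1 (-0.82) and lowered to -0.62 with germ cell genes held level. Without overlap in the null, 6 of the 8 genes were lower, Taf4b included, and 1 was higher, where 27.3% and 21.3% of all genes were. In the cKO 5 of 7 were lower without overlap, where 22.8% were. In the null, Eomes, T, Pax7 and Tspan8 changed by -1.74 ± 0.20, -1.92 ± 0.25, -1.32 ± 0.22 and -2.15 ± 0.22, and Foxo1 by -0.82 ± 0.26 (adjusted p = 0.0280, limma). The Foxo1 call was lost without null THY1+ replicate 1 (-0.68) or 2 (-0.77) or null KIT+ replicate 3 (-0.64). With germ cell genes held level it was also lost, at -0.20 (adjusted p = 0.573, limma). Taf4b in the null was below 1.5-fold at -0.33 ± 0.11 (adjusted p = 0.0321, limma), and its sign turned when germ cell genes were held level (0.28).

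**Figure D4:**
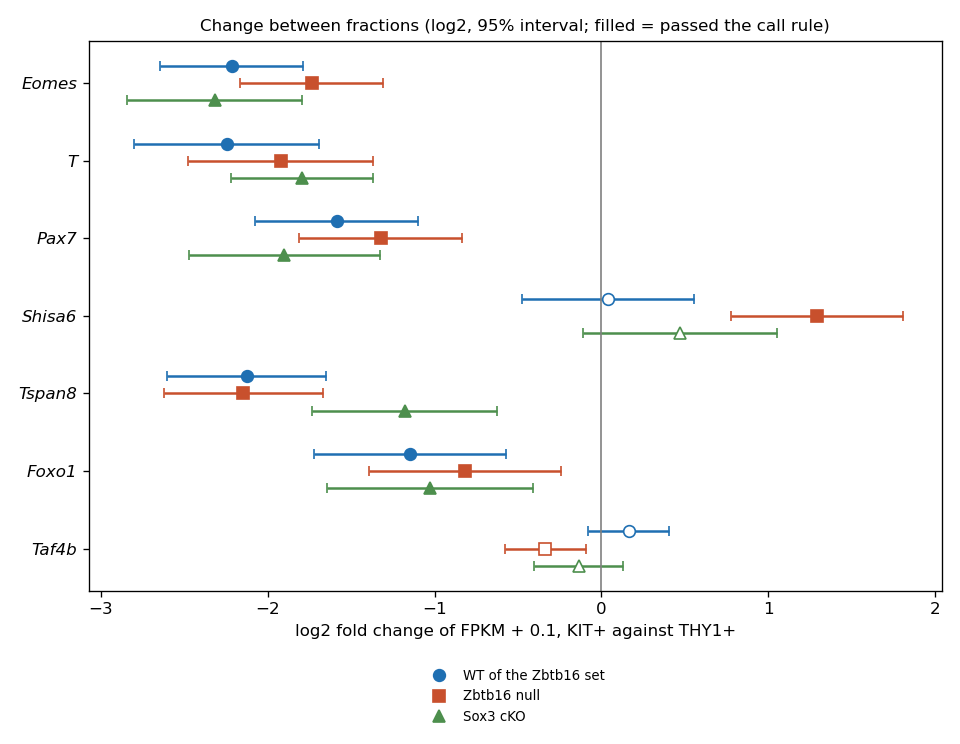
Log2 change of FPKM + 0.1 (x axis) with its 95% interval, KIT+ against THY1+, for the 7 genes tested in WT of the Zbtb16 set (circles), Zbtb16 null (squares) and Sox3 cKO (triangles), filled where the test was passed. Eomes, T, Pax7, Tspan8 and Foxo1 lie left of 0 in all 3 genotypes, and Shisa6 lies right of 0 in the null.

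All 16 other stem and undifferentiated markers fell from THY1+ to KIT+ in WT of the Zbtb16 set, with a median of -2.16, and 15 of 16 did so in both the null and Sox3 cKO. The largest falls in WT were in Ret and Gfra1, the receptors for the niche factor GDNF, at -2.81 ± 0.30 and -2.60 ± 0.24, and in Foxc2 and Id4, at -2.64 ± 0.42 and -2.50 ± 0.19. Of the FOXO relatives of Foxo1, Foxo3 and Foxo4 fell in WT (-0.73 ± 0.25 and -0.76 ± 0.18). Of the SHISA family, Shisa7 rose (1.08 ± 0.22), and of the TFIID subunits Taf12 rose (0.72 ± 0.18). Other cells differed between the fractions too. In WT, 9 of 9 macrophage genes fell in KIT+ (median -8.33), 12 of 15 T and NK cell genes fell and 1 rose, and 6 of 6 Leydig genes rose (median 4.12), while 0 of 8 general germ cell genes passed. The mutants were less level. Germ cell genes summed to 1290 to 1609 FPKM in null THY1+ and 804 to 1167 in null KIT+. In the cKO these sums were 1126 to 1296 and 800 to 1095. With germ cell genes held level, Eomes changed by -1.28 and T by -1.41 in the null, and both still passed. The part of these differences in the fraction changes was not tested.

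The third question was the effect of loss of SOX3. Averaged over both fractions, 0 of the 7 genes passed at 1.5-fold, where 10.3% of all genes did, and 8155 of 21212 genes had an unadjusted p under 0.05. Pax7 and Shisa6 were the nearest, both higher in the cKO. Pax7 changed by 0.58 ± 0.18 (adjusted p = 0.0414, limma), which is 1.49-fold and under the limit of 1.5, and Shisa6 by 0.55 ± 0.19 (adjusted p = 0.0504). Eomes was at 0.08 ± 0.17 (95% interval -0.29 to 0.45), T at -0.24 ± 0.14, Tspan8 at -0.43 ± 0.18 (adjusted p = 0.0981), Foxo1 at 0.09 ± 0.20 and Taf4b at -0.20 ± 0.09 (adjusted p = 0.105). Pax7 passed without WT labelled THY1+ replicate 3 (0.62), WT labelled KIT+ replicate 3 (0.62) or cKO KIT+ replicate 1 (0.68) or 2 (0.62), and Shisa6 passed without cKO THY1+ replicate 1 (0.64) or cKO KIT+ replicate 1 (0.67). With germ cell genes held level both passed (0.90 and 0.91). That scaling raises cKO against WT for genes in general. Before the 0.1 is added, it moves cKO THY1+ against WT labelled KIT+ by 0.27. It moves cKO KIT+ against WT labelled THY1+ by 0.59. The share of all genes that passed under it was not computed.

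**Figure D5:**
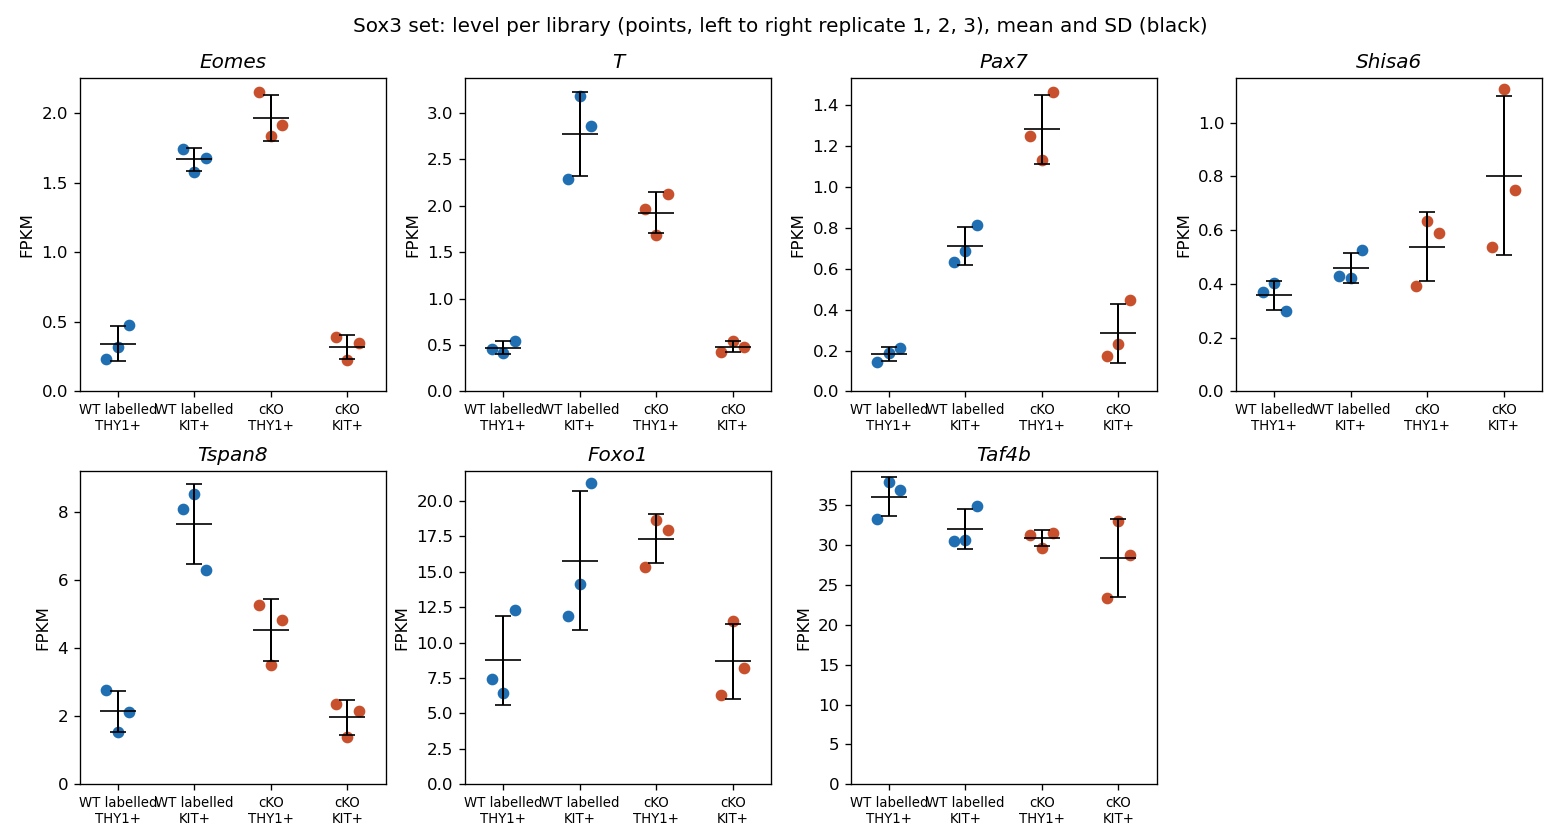
FPKM (y axis, from 0) of the 7 genes in each library of the Sox3 set by label, WT in blue and cKO in red, with the mean and SD of 3 libraries in black. The WT libraries labelled KIT+ overlap the cKO THY1+ libraries for Foxo1 and lie above them for T and Tspan8, and Pax7 is highest in cKO THY1+ at 1.13 to 1.47 FPKM.

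Library by library, Pax7 was at 1.25, 1.13 and 1.47 FPKM in cKO THY1+ and at 0.635, 0.686 and 0.814 in the WT libraries labelled KIT+, which carry the same sorting markers. The cKO libraries were all higher, 1.80-fold in the group means. In cKO KIT+ it was at 0.175, 0.231 and 0.447, and in the WT libraries labelled THY1+ at 0.145, 0.188 and 0.215, so that those groups overlapped.

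Paired by alike markers, 0 of 7 genes passed between cKO THY1+ and the WT libraries labelled KIT+, where 15 of 21212 genes did (0.0707%) and 2793 had an unadjusted p under 0.05. Pax7 was at 0.77 ± 0.26, T at -0.50 ± 0.19 and Tspan8 at -0.75 ± 0.25, with adjusted p-values of 0.291 to 0.320 (limma). Without overlap, 2 of 7 were higher (Eomes and Pax7) and 2 lower (T and Tspan8), where 7.59% and 12% of all genes were. T was at 1.96, 1.69 and 2.12 FPKM in cKO THY1+ and 2.28, 3.19 and 2.86 in the WT libraries labelled KIT+. Tspan8 was at 5.28, 3.52 and 4.82 against 8.09, 8.54 and 6.31. The genes differed in direction within this comparison.

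Between cKO KIT+ and the WT libraries labelled THY1+, 1 of 7 passed, Shisa6, which rose, where 12.4% of all genes rose and 17% passed. Shisa6 was at 0.537, 1.12 and 0.749 FPKM in the cKO and 0.371, 0.405 and 0.298 in WT, with no overlap, as for 22.8% of all genes in that direction (17.2% in the other, where Taf4b lay), and a change of 0.94 ± 0.27 (adjusted p = 0.0257, limma), or 1.44 with germ cell genes held level. This call was lost without WT labelled THY1+ replicate 1 (0.96), 2 (1.01) or 3 (0.84) or cKO KIT+ replicate 2 (0.69) or 3 (0.95). Markers of other cells were also higher in these cKO libraries: 5 of 6 Leydig genes and 5 of 8 endothelial genes rose, and 3 of 8 general germ cell genes fell. Sertoli genes summed to 43.4 to 52.2 FPKM in cKO KIT+ against 24.3 to 27.5 in WT. Peritubular and stromal genes summed to 354 to 430 against 159 to 246. Their part in the Shisa6 change was not tested. Pax7 was at 0.39 ± 0.26, Taf4b at -0.36 ± 0.12 (adjusted p = 0.0534, limma), T at 0.03 ± 0.19 and Eomes at -0.06 ± 0.24.

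Taken as labelled, the comparisons of cKO with WT gave large values of opposite sign in the fractions, alongside the conflict of Thy1 and Kit with the WT labels. In cells labelled THY1+, 5 of 7 genes were higher in the cKO, where 17.8% of all genes were and 29.1% passed, with Eomes at 2.25 ± 0.24, T at 1.82 ± 0.19 and Pax7 at 2.29 ± 0.26. In cells labelled KIT+, 5 of 7 were lower, where 12.6% of genes were and 25.1% passed, with Eomes at -2.09 ± 0.24, T at -2.29 ± 0.19 and Pax7 at -1.14 ± 0.26. Between the WT groups of this set 5 of 7 were higher in the libraries labelled KIT+, where 13.1% of genes were and 19.7% passed. Shisa6 and Taf4b passed in none of these. Holding germ cell genes level moves cKO against WT by 0.67 in cells labelled KIT+ before the 0.1 is added. In those cells the calls of Foxo1 (-0.19, adjusted p = 0.504, limma) and Pax7 (-0.61, adjusted p = 0.0549) were then lost. Tspan8 went from -1.93 to -1.27, and Shisa6 passed as higher (1.22, adjusted p = 0.00166, limma). Foxo1 was the least firm of the 5: its calls were 1.03, -0.86 and 0.86, and each was lost when at least 1 library was left out, among them WT labelled THY1+ replicate 2 (0.84 in cells labelled THY1+) and WT labelled KIT+ replicate 3 (-0.62 in cells labelled KIT+ and 0.62 between the WT groups).

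Of the other genes, Neurog3 fell in the cKO averaged over the fractions (-3.86 ± 0.27, adjusted p = 8.82e-05, limma), as did Upp1 (-0.64 ± 0.16) and Lin28a, an RNA-binding protein of undifferentiated cells (-1.21 ± 0.13). The last was the 1 of 16 stem and undifferentiated markers that passed, and the median of the 16 was 0.20. The study had named Neurog3 and Lin28a as lower in Sox3-deficient uSPG, so their direction is not independent evidence. Shisa5 and Shisa7 rose (0.65 ± 0.15 and 0.60 ± 0.17), Tbx2 and Tbx3 rose (0.999 ± 0.14 and 0.67 ± 0.19), Tbx1 fell (-0.98 ± 0.29), and of 15 TFIID subunits Taf9 fell (-0.61 ± 0.08). For 4 of 6 Leydig, 3 of 7 Sertoli and 3 of 8 endothelial genes a rise passed, beside a fall in 1 of 8 general germ cell genes, and the part of these cells was not tested.

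Levels of the members were compared across the 12 libraries of each set as a description. The points share fraction, genotype and isolation. Eomes and T correlated at r = 0.99 in the Zbtb16 set and 0.94 in the Sox3 set, Eomes and Pax7 at 0.98 and 0.92, and T and Pax7 at 0.99 and 0.85 (Pearson, log2 of FPKM + 0.1). Foxo1 was close to these, at 0.89 and 0.81 with Eomes. Tspan8 was less close in the Zbtb16 set, at 0.77 with Eomes and 0.74 with T. In the Sox3 set it was at 0.86 and 0.92, where Foxo1 was at 0.81 and 0.83. Shisa6 stood apart, at -0.21 and -0.19 with Eomes, and Taf4b was at 0.12 and -0.08.

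Among about 15870 genes with a mean of at least 1 FPKM in both sets, the 3 most like a member were ranked by the mean of its 2 correlations. Members needed a group mean of at least 1 FPKM in both sets, which left out Pax7, Shisa6 and Pdx1. For Eomes they were Rasgrp2 (mean r 0.98), Cd4 (0.97), a T cell and macrophage surface protein, and Gyltl1b (0.97). For T they were Ighm (0.98), Mpzl2 (0.97) and Pacsin1 (0.96), for Tspan8 Pdk1 (0.98), Stx3 (0.97) and Ell3 (0.97), and for Foxo1 Mtr (0.97), Dgkk (0.97) and Ccdc6 (0.97). Taf4b had Trim37 (0.94), Rundc3b (0.92) and Boll (0.91), a germ cell RNA-binding protein. These likenesses are descriptions, and the 12 libraries share the split between fractions.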

How the data were processed

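RNA was measured in 24 libraries of sorted mouse spermatogonia. The authors aligned reads to mm10 with Novoalign, placing multiply aligned reads at many positions, and the deposited values are FPKM computed by the authors with USeq, 1 table for each mutant. Whether counting used strand is not given in the sources used here. The authors tested counts with DESeq2, which FPKM do not allow. Here log2(FPKM + 0.1) was fitted in limma 3.58.1 (R 4.3.3) with 4 group means per table and eBayes (trend, robust), for genes whose mean FPKM reached 0.1 (22374 and 21212 genes), with Benjamini-Hochberg adjustment over all genes of a comparison and two-sided tests. Same-numbered libraries deviated together (lowest r 0.133 for WT and null THY1+, 0.362 for KIT+), so same-numbered pairs were counted there. The main fit held no replicate block, so its p-values leave this pairing out. A fit with the block was run as an alternative. Testes of 3 mice were pooled per isolation, and p-values measure the spread between these pools. In simulated data for null against WT in THY1+ uSPG (22374 genes, 200 changed), 54% of 2-fold and 89% of 4-fold changes of FPKM + 0.1 were recovered. There 8 unchanged genes passed. The simulated libraries were independent, without the shared deviation of same-numbered libraries, so recovery in the real data can differ. Reads were recovered from FPKM steps (89.58% to 91.43% of low values whole within 0.1). Genes named are the 8 members, 4 checks, their paralogs, and passing genes of 16 lists, at most 4 per list and comparison. Members and lists were chosen with earlier results of these data known.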

Additional observations from a re-analysis of the deposited data

Results flagged for a closer look

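Taf4b, the germ cell TFIID subunit, stood out because its null effect had opposite signs in the 2 fractions in every same-numbered pair of libraries. It was higher in the null in 3 of 3 pairs in THY1+ uSPG and lower in 3 of 3 pairs in KIT+ dSPG, and the effect in KIT+ less that in THY1+ was -0.50 on the log2 scale. The test of that difference gave an adjusted p of 0.118 (limma), and with germ cell genes held level the difference was 0.04. The general germ cell genes moved the same way, with a median of 0.32 in THY1+ and -0.20 in KIT+, and their part in the Taf4b values was not tested. Groups of 3 libraries are too small for a test of single outlying libraries.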

How the results depend on the processing

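In null against WT THY1+ uSPG, the 4 genes that passed became 2 (Eomes, T) with a pseudocount of 1 and 1 (T) among genes with a mean of at least 1 FPKM, where fewer members are tested, and 1 to 4 without 1 library. In KIT+ dSPG, 2 passed with the replicate block. From THY1+ to KIT+, 3 passed in WT above 1 FPKM, and 3 in the null above 1 FPKM or with a pseudocount of 1. For the interaction, Shisa6 alone passed (1 gene) with germ cell genes held level (1.64) or with the replicate block (adjusted p = 0.0163, limma), where same-numbered libraries of all 4 groups did not all deviate together (16 of 18 pairs above 0.1). For Sox3 averaged over fractions, 1 gene passed with median-of-ratios scaling, 2 with germ cell genes held level and 0 to 2 without 1 library. Between cKO KIT+ and WT labelled THY1+, 0 passed with a pseudocount of 1, above 1 FPKM, with the 2 groups alone or with replicates 2 and 3 alone, 2 with germ cell genes held level and 0 to 1 without 1 library. As labelled in KIT+ cells, 3 passed with replicates 2 and 3 alone. The replicate block moved no other count of calls by over 1.5 times. Shares of all genes that passed were computed for the main fit only, so counts under the alternatives have none beside them.

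Signs turned in 28 values without 1 library, 13 with germ cell genes held level, 2 with replicates 2 and 3 alone and 1 with a pseudocount of 0.01. Taf4b became -0.087 in null THY1+, 0.28 between null fractions, 0.043 in the interaction, 0.22 for Sox3 averaged, 0.27 between cKO fractions, 0.21 and 0.23 between the groups with alike markers (cKO THY1+, cKO KIT+) and 0.49 as labelled in KIT+. Foxo1 became 0.15 in null KIT+, Tspan8 0.51 in the interaction and 0.45 in cKO KIT+ against WT labelled THY1+, Eomes 0.40 in the latter, and T 0.14 for Sox3 averaged. With replicates 2 and 3 alone Eomes averaged became -0.092 and Taf4b between cKO fractions 0.0090, and with a pseudocount of 0.01 Pax7 in the interaction became -0.042. Their causes were not tested.

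Without 1 library, small changes crossed 0. The ranges were -0.12 to 0.24 for Shisa6 and -0.22 to 0.13 for Foxo1 in null KIT+, -0.14 to 0.18 for Shisa6 between WT fractions, -0.21 to 0.16 for Tspan8 in the interaction, and -0.014 to 0.19 for Eomes and -0.026 to 0.22 for Foxo1 averaged over Sox3. In cKO THY1+ against WT labelled KIT+ they were -0.0097 to 0.41 for Foxo1 and -0.086 to 0.011 for Taf4b. In cKO KIT+ against WT labelled THY1+ they were -0.25 to 0.15 for Eomes, -0.049 to 0.12 for T, -0.32 to 0.10 for Tspan8 and -0.22 to 0.27 for Foxo1. Of 629 log2 changes of members under alternatives that kept every library of the comparison, 588 kept direction and side of the threshold, 17 no longer passed, 10 newly passed and 14 changed sign. With replicates 2 and 3 alone these were 41, 6, 0 and 2 of 49, and without 1 library 937, 36, 7 and 28 of 1008. Depth limits Pdx1 most, at no more than 17 reads a library, and Pax7, Eomes and T in KIT+ cells.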
